A study of Mus musculus with 60 samples.

Results

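The H19, Igf2 and Kcnq1 imprinted domains are followed here through 8 genes of distal chromosome 7 (H19, Igf2, Ascl2, Phlda2, Kcnq1ot1, Kcnq1, Slc22a18 and Cd81), out of 50559 genes counted. They were chosen by their levels over all groups of line and time, and by how these levels compare between 2 deposited tables, so their values are given as descriptions with no test. The samples are poly(A)-selected RNA of mouse embryonic stem cells kept on gelatin in serum medium with LIF. Cells were collected without 2i (0 h) and after 12, 24, 48 and 96 h of 2i. The 2i was the GSK3 inhibitor CHIR99021 (3 µM) with the MEK inhibitor PD0325901 (1 µM), exchanged daily. Whether serum and LIF stayed in the medium during 2i is not stated in the sources. The 4 lines were wild-type (WT) 1A, its EED knockout and its EZH2 knockout (here Eed KO and Ezh2 KO), both made by Cas9 editing, and a separately derived wild-type line, V19. Each of the 20 groups held 3 biological replicates, which made 60 libraries. Each knockout is 1 edited line, so effects of the lost gene and of anything else particular to that line cannot be told apart. Eed and Ezh2 are core subunits of Polycomb repressive complex 2 (PRC2), which methylates histone H3 at lysine 27.

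Imprinted genes are expressed mainly from the copy of 1 parent. In the H19 and Igf2 domain, an imprinting control region that is methylated on the paternal copy binds CTCF on the maternal copy, and the maternal copy makes the long noncoding RNA H19 while the paternal copy makes the growth factor Igf2. In the Kcnq1 domain, the paternal copy makes the long noncoding RNA Kcnq1ot1, which is known to silence neighbouring genes in cis, and PRC2 is among the complexes known to take part in this in extraembryonic tissue. Each gene has 1 count per library in the deposited table, so parental copies were not distinguished.

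Sequences of the domain are shown first. H19 is the host of miR-675, whose mature arms are printed with the seed (bases 2 to 8) in capitals, because this is the best known small product of H19. Polyadenylated libraries do not measure mature miRNAs, and the Mir675 entry of the table held 0 counts. All 84 bases of that entry are also H19 exon on the same strand, so its 0 is no measure of this RNA. Both sequences are from RefSeq (GRCm38.p6, chromosome 7, minus strand).
miR-675-5p: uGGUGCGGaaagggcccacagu
miR-675-3p: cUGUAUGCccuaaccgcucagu
RefSeq promoter entries were found for 6 of the 8 members, and 4 are printed as the 250 bases before the start site with CG dinucleotides in capitals. They are the CG-richest of 4 Igf2 entries, the only entries of Ascl2 and Phlda2, which moved with line and time, and that of Kcnq1ot1, the noncoding RNA of the same domain. All lie on the minus strand of GRCm38.p6.
Igf2, chr7:142658805-142659054: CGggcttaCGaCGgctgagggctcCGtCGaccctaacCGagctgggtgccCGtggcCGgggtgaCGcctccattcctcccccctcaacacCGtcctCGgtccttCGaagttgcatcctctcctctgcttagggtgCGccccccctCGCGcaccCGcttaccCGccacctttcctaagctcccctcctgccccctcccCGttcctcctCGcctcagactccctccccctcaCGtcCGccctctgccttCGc
Ascl2, chr7:142969265-142969514: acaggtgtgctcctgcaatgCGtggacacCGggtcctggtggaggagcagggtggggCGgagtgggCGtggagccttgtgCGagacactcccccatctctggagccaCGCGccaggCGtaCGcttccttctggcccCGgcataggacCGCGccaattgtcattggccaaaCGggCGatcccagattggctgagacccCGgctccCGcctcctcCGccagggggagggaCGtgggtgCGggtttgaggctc
Phlda2, chr7:143502525-143502774: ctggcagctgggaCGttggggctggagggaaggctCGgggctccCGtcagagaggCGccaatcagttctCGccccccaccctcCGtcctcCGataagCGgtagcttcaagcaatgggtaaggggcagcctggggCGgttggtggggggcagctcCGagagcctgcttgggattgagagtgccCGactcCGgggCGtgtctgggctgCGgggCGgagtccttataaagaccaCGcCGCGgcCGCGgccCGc
Kcnq1ot1, chr7:143296548-143296797: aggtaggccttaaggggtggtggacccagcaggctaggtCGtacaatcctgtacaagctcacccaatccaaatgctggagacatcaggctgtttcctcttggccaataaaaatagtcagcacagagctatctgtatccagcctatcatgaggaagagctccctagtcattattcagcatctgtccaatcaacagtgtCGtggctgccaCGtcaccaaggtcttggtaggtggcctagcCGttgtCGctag
The Igf2 stretch held 22 CG dinucleotides, that of Phlda2 21, that of Ascl2 19 and that of Kcnq1ot1 5, against a median of 6 over 32851 RefSeq stretches of the same length. Fewer CG dinucleotides than in Igf2 were found in 85.2% of them, and fewer than in Kcnq1ot1 in 44.4%. The motif CCAAT, searched on both strands, matched 3 times in Ascl2, 3 times in Kcnq1ot1, once in Phlda2 and not in this Igf2 stretch, while 33.8% of all stretches held at least 1 match and 10.1% at least 2. TATAAA, also searched on both strands, matched only in Phlda2 among the 4 printed, and in 12.4% of all stretches. In Phlda2, the only stretch with both motifs, the matches do not overlap.

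In GRCm39 coordinates of the count table, H19 (142129267 to 142131883) and Igf2 (142204505 to 142220566) lie on the minus strand of chromosome 7. Ascl2 (142520559 to 142523001, minus) and Cd81 (142606487 to 142621667, plus) follow. Kcnq1 (142660614 to 142980787, plus) contains Kcnq1ot1 (142766848 to 142850284, minus), which the table lists as 1 exon of 83437 bases. Slc22a18 (143027463 to 143053071, plus) and Phlda2 (143055282 to 143056882, minus) close the row. From 500 kb below H19 to 500 kb above Phlda2 the table lists 79 genes, of which 71 are neighbours and not members. Of the 8 members 7 passed the filter on low counts, and of the neighbours 20 did. Exons are shared in part: 40.8% of the exon length of Cd81 is also Tssc4, and 3.67% of that of H19 is also Mir675. Of Igf2 1.72% is also Igf2os, and of Kcnq1 3.51% is also Kcnq1ot1. The strand setting of the counting is not given in the sources used here, so reads of opposite-strand partners may be mixed. Cd81 and Tssc4 lie on the same strand, so no strand setting separates reads in their shared bases, a limit on the Cd81 levels below.

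Library totals ran from 2561169 to 11065948 assigned reads (median 6055990). Ezh2 was at 14.5 to 19.9 CPM (assigned reads scaled to a common library total) in the 15 Ezh2 KO libraries and at 194 to 278 CPM in 1A WT. Eed was at 15.3 to 28.2 CPM in the 15 Eed KO libraries and at 246 to 393 CPM in 1A WT, so neither targeted gene overlapped its wild-type range. All 12 pluripotent stem cell markers had counts in every group. Levels below are CPM as mean ± SD over 3 libraries, and differences are log2 values ± SE from the edgeR model of all groups. In bulk RNA, fewer cells of a type and less RNA per cell cannot be told apart.

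H19 was among the most abundant transcripts of Eed KO cells and a minor one in the other 3 lines. In 1A WT at 0 h the 3 libraries held 14.1, 16.2 and 17.8 CPM (16.0 ± 1.87), and in Eed KO 1887, 1858 and 1670.4 CPM (1805 ± 118). The ranges were far apart, with a ratio of means of 113 and a log2 difference of 6.83 ± 0.16. H19 ranked 21st by mean CPM, not scaled by exon length, among all genes in Eed KO at 0 h and took 0.192% of the counts. Over 2i, H19 in Eed KO went to 2202 ± 209 at 12 h, 3817 ± 251 at 24 h and 5492 ± 175 CPM at 48 h, where it ranked 3rd of all genes, and then to 2689 ± 49.3 at 96 h. No 2 neighbouring levels of this series overlapped. In 1A WT the group means had the same order at a lower level, with 0 and 12 h overlapping: 16.6 ± 2.76 at 12 h, 27.7 ± 1.74 at 24 h, 64.0 ± 12.3 at 48 h and 22.6 ± 3.09 CPM at 96 h. The difference between Eed KO and 1A WT was 7.04 ± 0.16 at 12 h, 7.11 ± 0.15 at 24 h, 6.41 ± 0.15 at 48 h and 6.90 ± 0.15 at 96 h.

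In Ezh2 KO cells H19 stood below 1A WT and not above it. The Ezh2 KO libraries at 0 h held 1.38, 3.82 and 4.16 CPM (3.12 ± 1.52), a difference of -2.30 ± 0.21 from 1A WT, and these ranges did not overlap. These values rest on 65 reads in the 3 libraries together. The group level was 2.57 ± 0.151 CPM at 12 h, the lowest of all 20 groups, and 15.8 ± 2.69 at 48 h. At 96 h it was 12.2 ± 1.86 CPM, -0.90 ± 0.16 from 1A WT. V19 WT was also below 1A WT, with 4.07, 5.33 and 5.96 CPM at 0 h (-1.65 ± 0.20) and 13.3 ± 2.50 at 48 h. Its level at 96 h was 2.60 ± 0.669 CPM, a difference of -3.07 ± 0.22 from 1A WT. Within V19 WT, H19 at 96 h was lower than at 0 h (-0.92 ± 0.28, from 41 and 79 reads), while in 1A WT it was higher (0.51 ± 0.16). The 5 Eed KO groups held the first 5 places in the order of levels and the 5 groups of 1A WT the next 5. Further down that order, 1A WT at 12 and 0 h, Ezh2 KO at 48 h and V19 WT at 48 h each overlapped the next, down to Ezh2 KO at 96 h.

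Igf2, the growth factor gene of the same domain, also stood highest in Eed KO, with a smaller gap. The libraries of 1A WT at 0 h held 30.9, 33.2 and 31.8 CPM (32.0 ± 1.12), and those of Eed KO 808, 813 and 786 CPM (802 ± 14.1). The difference was 4.65 ± 0.14 at 0 h, 4.46 ± 0.14 at 12 h, 4.24 ± 0.13 at 24 h, 3.63 ± 0.13 at 48 h and 3.30 ± 0.13 at 96 h, so it was smaller at each later time. Igf2 was highest at 48 h in all 4 lines: 175 ± 7.99 CPM in 1A WT, 2165 ± 291 in Eed KO, 165 ± 21.0 in Ezh2 KO and 60.1 ± 6.60 in V19 WT. At 96 h it was at 83.8 ± 6.33 in 1A WT, above the range at 0 h, and at 825 ± 28.0 in Eed KO. In Ezh2 KO Igf2 stood above 1A WT at 0 h, where H19 stood below it. It was at 42.6, 46.8 and 52.0 CPM at 0 h, above all 1A WT libraries (0.56 ± 0.14), and at 96 h it was below them, as H19 was (59.7 ± 3.98 CPM, -0.49 ± 0.13). V19 WT stood below 1A WT at both ends, with 14.9 ± 3.42 CPM at 0 h and 31.2 ± 1.47 at 96 h.

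**Figure D1:**
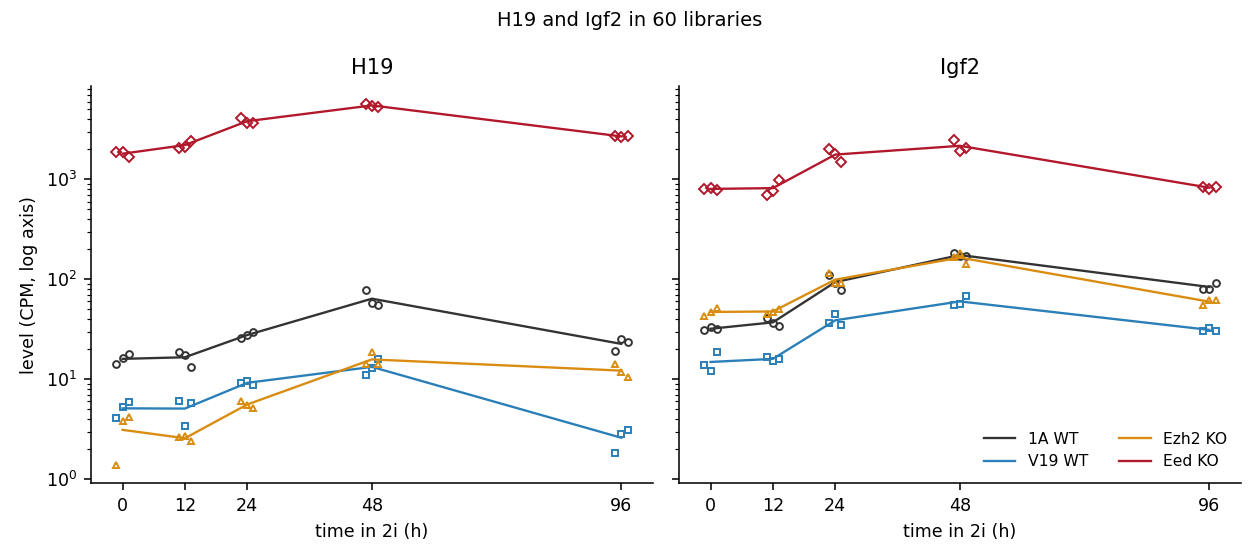
Levels of H19 and Igf2 in CPM (log axis) against hours in 2i, with 1 open symbol per library, set slightly apart sideways, and lines through the group means of 3 libraries. Eed KO lies above every other line at all 5 times for both genes, and all 4 lines are highest at 48 h.

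The balance of the 2 genes differed between lines. For this balance, levels were taken per kilobase of exon. H19 per Igf2 on this scale was 1.25 ± 0.134 in 1A WT at 0 h and 5.60 ± 0.275 in Eed KO. In Ezh2 KO the ratio was 0.0804, 0.203 and 0.200 in the 3 libraries at 0 h, and in V19 WT it was 0.872 ± 0.199. At 96 h the ratio was 0.672 ± 0.0879 in 1A WT, 8.13 ± 0.161 in Eed KO, 0.512 ± 0.115 in Ezh2 KO and 0.207 ± 0.0537 in V19 WT. Over the 5 times in Ezh2 KO it was lowest at 12 h (0.135 ± 0.0142) and highest at 96 h, and in V19 WT it was highest at 0 h and lowest at 96 h. Over the 20 group means of log2 CPM, H19 and Igf2 had Pearson's r = 0.940, given as a description, since the groups share lines and Eed KO is far above the rest.

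**Figure D2:**
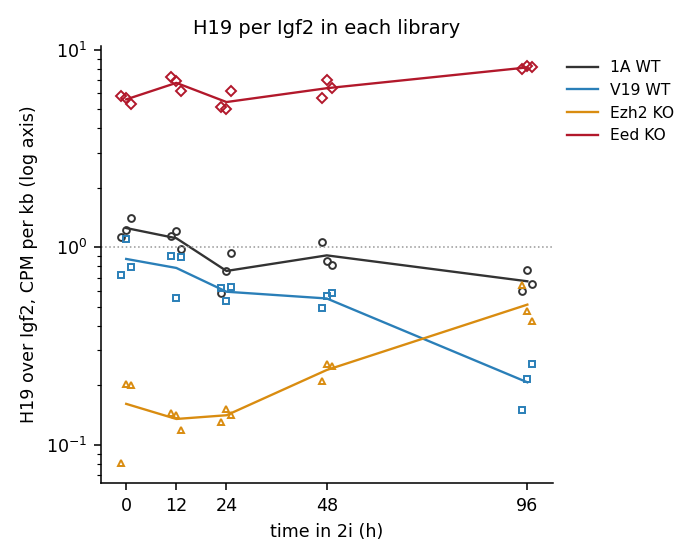
Ratio of H19 to Igf2, each as CPM per kilobase of exon (log axis), against hours in 2i, with 1 open symbol per library and lines through the means of 3 ratios. The dotted line marks equal levels. Eed KO lies between 5.02 and 8.28 in its 15 libraries, and Ezh2 KO and V19 WT trade places between 48 and 96 h.

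Ascl2, a transcription factor needed for trophoblast, was the member of the Kcnq1 domain with the widest range of levels. At 0 h it was at 9.18, 9.47 and 9.15 CPM in 1A WT and at 42.0, 42.9 and 34.8 CPM in Eed KO, a difference of 2.10 ± 0.18 without overlap. In Eed KO it was highest at 12 h (97.2, 75.3 and 50.1 CPM), a group with a wide spread, and still at 68.7 ± 2.64 at 24 h. It was lowest there at 96 h, with 16.3 ± 1.34 CPM. The lowest means of 1A WT (5.15 ± 0.373 CPM), Ezh2 KO (2.59 ± 0.606) and V19 WT (3.56 ± 1.64) were those at 48 h. Ascl2 and Igf2 therefore went opposite ways over time in 1A WT, where Ascl2 was lowest and Igf2 highest at 48 h. The difference of Eed KO from 1A WT was 3.01 ± 0.17 at 12 h, 3.38 ± 0.18 at 24 h, 3.28 ± 0.21 at 48 h and 1.25 ± 0.21 at 96 h.

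Phlda2, a growth-restraining gene of the placenta, had an early maximum and a late fall in the wild-type lines. In 1A WT it was at 62.1 ± 6.26 CPM at 0 h, 101 ± 4.50 at 12 h, 48.6 ± 5.87 at 48 h and 15.0 ± 1.58 at 96 h (-2.05 ± 0.17 from 0 h). V19 WT followed closely, with 61.1 ± 3.73, 115 ± 10.6 and 14.7 ± 2.24 CPM at 0, 12 and 96 h, and its difference from 1A WT was within -0.15 and 0.18 at all 5 times. Eed KO departed from this course most at 48 h. There the libraries held 198, 204 and 199 CPM, a difference of 2.03 ± 0.15 from 1A WT, although Eed KO was lower than 1A WT at 0 h (45.1 ± 4.66 CPM, -0.46 ± 0.15). At 96 h Eed KO was at 41.1 ± 6.76 CPM, 1.46 ± 0.17 above 1A WT. In Ezh2 KO Phlda2 was also highest at 12 h (48.3 ± 6.88 CPM), and its level at 0 h was 25.4 ± 1.89 CPM (-1.28 ± 0.15 from 1A WT). Its fall over 96 h was smaller than in 1A WT (-1.17 ± 0.18), and at 96 h it was at 11.4 ± 1.32 CPM, -0.40 ± 0.20 from 1A WT.

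Slc22a18, a membrane transporter gene next to Phlda2, had the same maximum in Eed KO at 48 h. It was at 14.6, 16.1 and 15.1 CPM there, against 4.46, 3.09 and 3.33 CPM in 1A WT (2.05 ± 0.20). No other group passed a mean of 5.50 CPM. The RefSeq stretch before its start holds 0 CG dinucleotides, against 21 in the printed stretch of Phlda2. Slc22a18 and Phlda2 had r = 0.881 over the 20 group means, the highest value of the Kcnq1 domain members, again a description over shared lines. The lowest level of Slc22a18 was that of Ezh2 KO at 96 h, 1.02 ± 0.256 CPM from 22 reads in 3 libraries.

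Cdkn1c, an inhibitor of cyclin-dependent kinases, lies between Kcnq1 and Slc22a18 and is no member, so its differences were tested. In 1A WT Cdkn1c fell from 72.0 ± 3.40 CPM at 0 h to 22.2 ± 3.24 at 96 h (-1.71 ± 0.13, adjusted p = 1.4e-16 by edgeR's quasi-likelihood test). In V19 WT Cdkn1c fell from 79.1 ± 7.69 to 10.2 ± 1.43 CPM (-2.95 ± 0.14, adjusted p = 9.9e-24). In Eed KO Cdkn1c was at 125 ± 17.3 CPM at 0 h, 260.5 ± 38.2 at 12 h, 477 ± 18.5 at 24 h and 1596 ± 191 CPM at 48 h. At 96 h Cdkn1c was still at 675 ± 14.6 CPM, 2.43 ± 0.11 above 0 h (adjusted p = 1.3e-24). The 96 h response of Eed KO differed from that of 1A WT by 4.14 ± 0.17 for Cdkn1c (adjusted p = 1.4e-25). In Ezh2 KO Cdkn1c was lower than in 1A WT at 0 h, at 24.7 ± 1.19 CPM (-1.55 ± 0.12, adjusted p = 8.4e-15).

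Kcnq1ot1, the noncoding RNA of the domain, had a narrow range of levels. Its highest group mean was 3.49 times the lowest, against 28.6 times for Ascl2, the other gene whose printed stretch holds 3 CCAAT matches. Its group means lay between 4.69 ± 1.92 CPM (Ezh2 KO, 96 h) and 16.4 ± 1.04 CPM (1A WT, 24 h), and no group stood clear of its neighbour in the order of levels. At 0 h it was at 7.76 ± 1.89 CPM in 1A WT, 6.28 ± 2.32 in Eed KO, 5.59 ± 1.17 in Ezh2 KO and 7.53 ± 2.10 in V19 WT. At 24 h the libraries of 1A WT, at 17.2, 16.8 and 15.2 CPM, lay above all others of that time. Eed KO at 48 h held 16.2, 10.5 and 16.3 CPM. In V19 WT at 96 h replicate 1 was at 20.2 CPM and the others at 7.80 and 11.0 CPM, and the difference from 1A WT was 0.89 ± 0.29 with it and 0.47 without it. Spread over its length of 83437 bases, Kcnq1ot1 was at 0.0930 CPM per kb in 1A WT at 0 h, and H19 at 7.0 CPM per kb.

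Kcnq1, the potassium channel gene that contains Kcnq1ot1, was barely detected. It had 63 reads in all 60 libraries, and 34 libraries had any. The most were 14 reads in the 3 libraries of Eed KO at 24 h and 11 at 48 h (0.547, 0.797 and 0.697 CPM). No read fell in Kcnq1 in Ezh2 KO at 0 h or in V19 WT at 0 and 48 h. At 3 reads over a group, these zeros allow up to 0.149, 0.191 and 0.267 CPM, a limit for counting error only.

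Cd81, a tetraspanin of the cell surface, changed little in Eed KO and was higher at 48 and 96 h of 2i than at 0 h in the other lines. In 1A WT it was at 99.0, 97.2 and 91.5 CPM at 0 h and at 173, 185 and 182 CPM at 96 h (0.90 ± 0.08). In Ezh2 KO it went from 108 ± 3.27 to 160.1 ± 4.61 CPM and in V19 WT from 91.6 ± 2.86 to 151 ± 4.15 CPM. In Eed KO it was at 120.1 ± 13.2 CPM at 0 h and 118 ± 2.90 at 96 h (-0.03 ± 0.08), and the ranges of 12, 24, 48 and 96 h each overlapped that of 0 h. Of its highest and lowest group means, 179.9 and 91.6 CPM, the ratio was 1.96, the narrowest range of the 7 tested members.

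**Figure D3:**
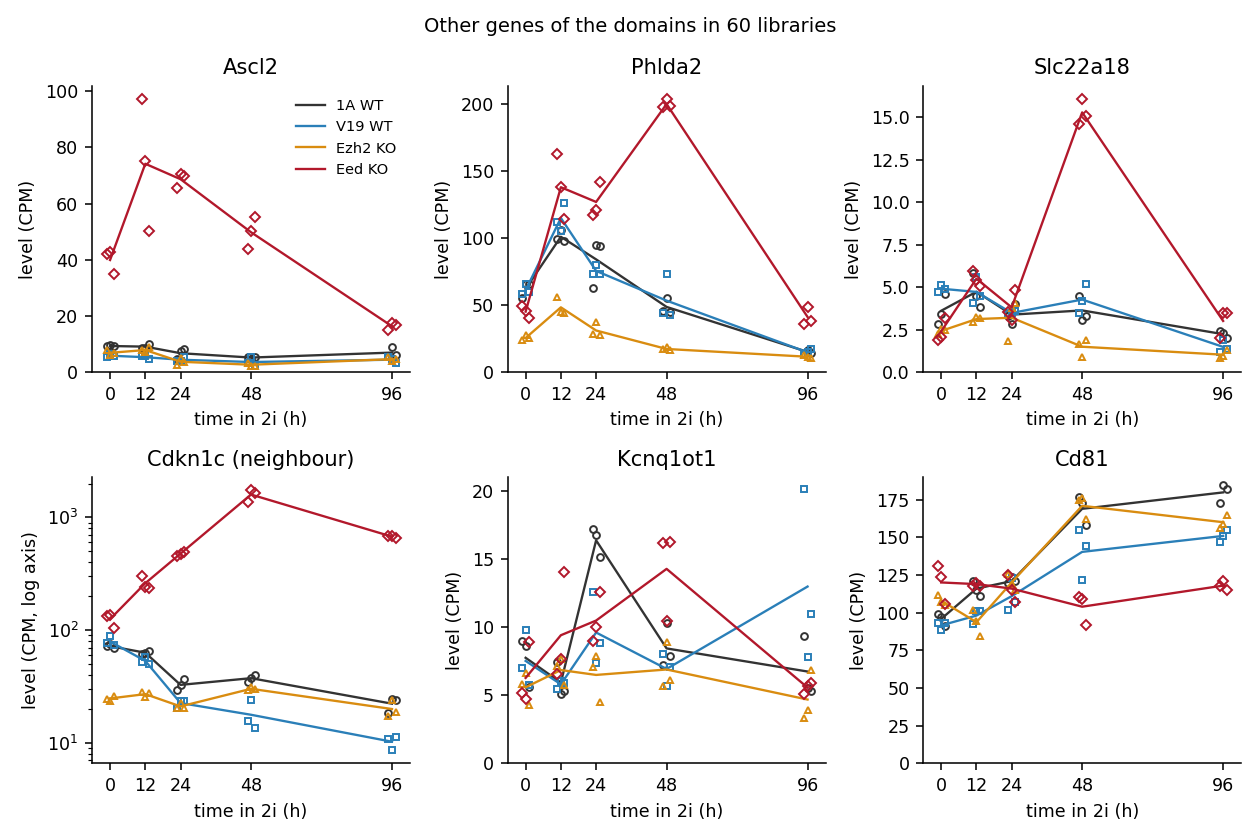
Levels in CPM against hours in 2i for 5 members and the neighbour Cdkn1c (log axis for Cdkn1c only), with 1 open symbol per library and lines through the means of 3 libraries. Phlda2, Slc22a18 and Cdkn1c are highest in Eed KO at 48 h, and Cd81 in Eed KO stays between 91.9 and 131 CPM.

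For Eed KO against 1A WT at 0 h, 5 of the 7 tested members passed an adjusted p under 0.05, 4 higher and 1 lower. Over all 15083 genes tested, 49.6% passed, 26.4% higher and 23.3% lower. At 96 h the members' counts were again 4 higher and 1 lower, where 55.3% of all genes passed (30.9% higher, 24.4% lower). Nothing is read from these counts, since the same levels chose the members. Of the 71 neighbours by position, 20 passed the filter on low counts, and at 0 h 11 of these rose and 2 fell, with a median of 0.82, against a median of 0.00 over all genes and -0.06 over 1164 other genes of chromosome 7. The filter helps to set this count and median: Syt8, Mrgpre, Tnfrsf23 and Th had group means below 1 CPM in all groups but those of Eed KO. In the RUV-normalized table described below, 4 neighbours were called in place of 13, and Dusp8 (-0.10) and Tnnt3 (-0.74) were not higher there. Igf2os, which is antisense to Igf2, rose by 4.33 ± 0.22 (adjusted p = 7.0e-23), and its reads may be mixed with those of Igf2. Dusp8, a MAP kinase phosphatase gene, rose by 2.92 ± 0.22 (adjusted p = 3.3e-16). The tyrosine hydroxylase gene Th (2.55 ± 0.68, adjusted p = 0.0014) and the fast muscle troponin gene Tnnt3 (2.43 ± 0.32, adjusted p = 1.6e-08) rose as well. At 96 h 12 neighbours were higher and 2 lower, with a median of 0.91. Cdkn1c (4.93 ± 0.13, adjusted p = 9.4e-35), Tnnt3 (5.58 ± 0.52, adjusted p = 7.3e-13) and Mrgpre (4.98 ± 0.79, adjusted p = 6.3e-07) were among them. In 1A WT at 96 h Tnnt3 was at 0.114 CPM and Mrgpre at 0.0636 CPM, so the sizes of their differences rest on very few reads. The filter helps to set the count and median at 96 h as well.

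Markers of extraembryonic cell types were higher in Eed KO at 0 h, as were H19, Igf2 and Ascl2. All 13 tested trophoblast markers and all 16 tested primitive endoderm markers rose. Over all genes tested 49.6% passed in this comparison, 26.4% higher and 23.3% lower, and these shares stand beside all marker counts given here. The filter on low counts may help to set the marker counts, as it does for the neighbours. The summed level of 15 trophoblast markers was 284 to 342 CPM in 1A WT at 0 h and 1805 to 2334 CPM in Eed KO, and 895 to 925 against 5753 to 6429.5 CPM at 48 h. At 0 h 13 of the 15 had counts in both lines, and the placental lactogen genes Prl3d1 and Prl2c2 were at 0. Hand1 was at 2.22 to 3.10 CPM in 1A WT and at 153 to 179 CPM in Eed KO. The sum of 18 primitive endoderm markers was 765 to 837 CPM in 1A WT at 0 h and 5969 to 6341 CPM in Eed KO, and 799 to 934 against 4351 to 4406 CPM at 48 h. Within Eed KO the trophoblast sum was highest at 48 h, as H19 was, while the primitive endoderm sum was highest at 0 h. Afp and Ttr were below 1 CPM in every library of both lines at 0 h, while Gata4 was at 95.7 to 99.5 CPM in Eed KO. Of the fibroblast and feeder markers 8 of 11 tested rose and 2 fell in Eed KO at 0 h (sums of 60.1 to 68.5 against 45.4 to 49.5 CPM), and of the mesoderm and muscle markers 4 of 6 rose and 0 fell (56.0 to 61.8 against 23.1 to 27.0 CPM). In Ezh2 KO at 0 h the trophoblast sum was 210.2 to 217 CPM and the primitive endoderm sum 1208 to 1326 CPM. The sum of 12 pluripotent stem cell markers at 0 h was 7210.2 to 7420.4 CPM in 1A WT and 5472 to 5709.7 CPM in Eed KO. The part of these cell types in the levels of the domain genes was not tested.

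For Ezh2 KO against 1A WT at 0 h, 1 tested member was higher (Igf2) and 2 lower (H19 and Phlda2), where 22.8% of all genes passed. Of the 20 neighbours 1 rose and 2 fell, with a median of -0.03. Cars, a cysteine tRNA ligase gene, rose (0.38 ± 0.07, adjusted p = 2.1e-05). The leukocyte gene Lsp1 fell with Cdkn1c (-1.59 ± 0.47, adjusted p = 0.0093), at only 0.520 against 1.45 CPM. At 96 h 3 members were lower, where 13.2% of all genes passed. Of the neighbours 1 was higher (Dhcr7, 0.42 ± 0.12, adjusted p = 0.014) and 1 lower (Lsp1, -1.87 ± 0.56, adjusted p = 0.019, at 0.281 against 1.11 CPM). Leaving out replicate 3 of Ezh2 KO left 0 of these neighbour calls by edgeR, and leaving out its replicate 2 or replicate 1 of 1A WT left 1. DESeq2 on all libraries called 3 neighbours. For V19 WT against 1A WT, 2 members (H19 and Igf2) were lower at 0 h, where 10.5% of all genes passed. The neighbours Lsp1 (-3.40 ± 0.68, adjusted p = 2.7e-04) and Dusp8 (-1.36 ± 0.41, adjusted p = 0.023) were lower too, and 1 was called without replicate 1 or 2 of 1A WT or without replicate 2 or 3 of V19 WT. Both rest on low levels, with Lsp1 at 0.123 CPM in V19 WT against 1.45 in 1A WT and Dusp8 at 0.866 against 2.19 CPM. At 96 h 1 member was higher and 3 were lower, against 7.45% of all genes. The higher one was Kcnq1ot1, which was not called with the replicate block and differed by 0.89 with and 0.47 without replicate 1 of V19 WT. At this time 1 neighbour was higher and 5 lower. Without replicate 2 or 3 of either of these 2 groups, 3 neighbours were called in place of 6.

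**Figure D4:**
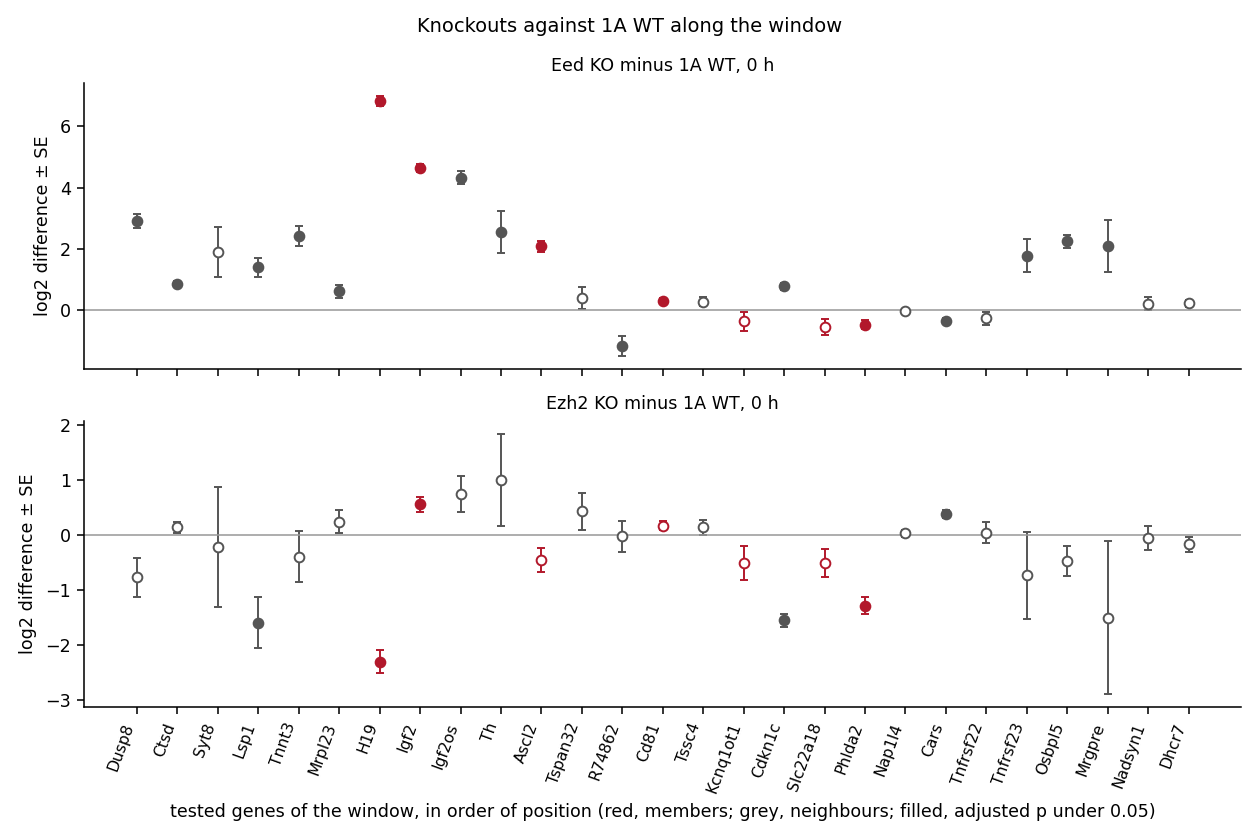
Log2 differences ± SE at 0 h of Eed KO (top) and Ezh2 KO (bottom) from 1A WT for the 27 tested genes of the window, in order of position. Red points are members, grey points neighbours, and filled points have an adjusted p under 0.05. H19, Igf2 and Igf2os stand highest in Eed KO, while in Ezh2 KO H19 is the lowest point.

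Between 0 and 96 h of 2i, 3 of the 7 tested members were counted as higher and 1 as lower in 1A WT, where 48.6% of all genes passed the threshold. In Eed KO 1 was higher and 1 lower, against 39.7% of all genes. In Ezh2 KO 3 were higher and 2 lower, against 42.8%, and in V19 WT 3 were higher and 3 lower, against 47.5%. These counts of members, like those for Ezh2 KO and V19 WT above, come from levels that chose the members, and nothing is read from them. Among the 20 tested neighbours, whose counts stand beside the same shares of all genes, 6 rose and 2 fell in 1A WT. Tnnt3 fell by 3.27 (SE 0.77, adjusted p = 3.8e-04), Igf2os rose by 1.16 ± 0.32 (adjusted p = 0.0025) and Dusp8 by 0.83 ± 0.29 (adjusted p = 0.014). In Eed KO 9 neighbours rose and 0 fell, led by Cdkn1c, Tnfrsf23 (2.40 ± 0.30, adjusted p = 4.8e-09) and Syt8 (2.06 ± 0.43, adjusted p = 1.3e-04). This count of 9 in 20 is near the share of all genes, 39.7%. The filter on low counts helps to set it, since Tnfrsf23 and Syt8 had group means below 1 CPM in all groups but those of Eed KO. In Ezh2 KO 3 rose and 4 fell, though with no filter on low counts 3 were called in place of 7 and with the replicate block Osbpl5 was not. In V19 WT 5 rose and 4 fell, with Tspan32 higher (1.31 ± 0.39, adjusted p = 0.0047) and Osbpl5 lower (-1.69 ± 0.46, adjusted p = 0.0019).

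The 96 h response was also compared between lines with interaction terms, given for members as descriptions. The response of Eed KO minus that of 1A WT was -1.35 ± 0.18 for Igf2, -0.86 ± 0.28 for Ascl2, -0.93 ± 0.11 for Cd81, 1.92 ± 0.23 for Phlda2 and 0.07 ± 0.20 for H19. For Ezh2 KO it was 1.40 ± 0.27 for H19, -1.05 ± 0.19 for Igf2, 0.88 ± 0.25 for Phlda2 and -0.34 ± 0.11 for Cd81, and for V19 WT it was -1.43 ± 0.32 for H19. Over all genes tested, 27.3%, 12.2% and 1.68% passed in these 3 comparisons. Of the neighbours 9, 3 and 1 differed in these comparisons, and Cdkn1c was among them each time (1.39 ± 0.18 with adjusted p = 1.3e-07 for Ezh2 KO, -1.25 ± 0.19 with adjusted p = 6.6e-05 for V19 WT). The comparisons of the 3 lines with 1A WT share its libraries.

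Genes known to keep or read imprints were followed as a list of 21 regulators of imprinting control regions. In Eed KO at 0 h 12 of them were lower and 1 higher than in 1A WT, with a median of -0.29, against a median of 0.00 over all genes, of which 49.6% passed. The de novo DNA methyltransferase Dnmt3a fell from 696 to 174 CPM (-2.00 ± 0.10, adjusted p = 4.8e-23), and Tet1 (-1.04 ± 0.17, adjusted p = 1.2e-06), Ehmt1 (-0.84 ± 0.13, adjusted p = 4.4e-07) and Trim28 (-0.47 ± 0.08, adjusted p = 3.9e-06) fell with it. In Ezh2 KO at 0 h 7 were higher and 6 lower (median -0.02), where 22.8% of all genes passed. The zinc finger gene Zfp57, which binds methylated imprinting control regions, rose there by 0.46 ± 0.06 (adjusted p = 1.1e-07) and Dnmt3l by 0.63 ± 0.11 (adjusted p = 1.3e-05), while Dnmt3b fell by 0.66 (SE 0.10, adjusted p = 9.5e-07). Over 96 h of 2i in 1A WT 4 rose and 9 fell (median -0.21), where 48.6% of all genes passed, with Dnmt3a at -3.66 ± 0.11 (adjusted p = 4.0e-32), Dnmt3b at -2.70 ± 0.11 (adjusted p = 5.4e-27), Dnmt3l at -1.55 ± 0.11 (adjusted p = 1.1e-16) and Zfp42 at 0.69 ± 0.06 (adjusted p = 4.8e-14).

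Of 18 genes of the insulin-like growth factor axis 16 were tested, and in Eed KO at 0 h 7 were higher and 2 lower (median 0.35). This count of 9 in 16 is near the share of all genes, 49.6%, and so is that of 9 in 16 over 96 h in 1A WT, where it was 48.6%. Akt1, a kinase downstream of the receptors (0.68 ± 0.07, adjusted p = 2.1e-11), and Igf2bp2, which encodes a protein that binds Igf2 mRNA (0.88 ± 0.10, adjusted p = 1.3e-10), rose, and its relative Igf2bp1 fell (-0.77 ± 0.09, adjusted p = 1.3e-10). In Ezh2 KO 3 were higher and 7 lower (median -0.23), where 22.8% of all genes passed, with the binding proteins Igfbp3 (-0.92 ± 0.11, adjusted p = 2.1e-09) and Igfbp4 (-1.51 ± 0.25, adjusted p = 5.4e-06) lower. Grb10, an imprinted adaptor of the receptors, was higher in Eed KO (0.64 ± 0.09, adjusted p = 1.1e-08) and in Ezh2 KO (0.41 ± 0.09, adjusted p = 2.1e-04). Over 96 h in 1A WT 3 rose and 6 fell (median -0.27), with Igfbp2 higher (1.11 ± 0.13, adjusted p = 4.9e-10) and Igfbp3 lower (-1.71 ± 0.12, adjusted p = 1.8e-17).

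A list of 19 imprinted genes of other chromosomal domains, 17 of them tested, moved both ways in Eed KO. At 0 h 8 were higher and 7 lower (median 0.19), where 49.6% of all genes passed. The noncoding RNA Meg3 fell by 3.05 (SE 0.14, adjusted p = 5.3e-24), Impact fell by 0.94 (SE 0.08, adjusted p = 1.2e-13), and Peg10 rose by 1.12 ± 0.13 (adjusted p = 5.3e-10). In Ezh2 KO 1 was higher and 10 lower (median -0.37), where 22.8% of all genes passed, with Sfmbt2 at 10.5 against 151 CPM (-3.83 ± 0.17, adjusted p = 1.0e-23), Peg3 at -1.61 ± 0.13 (adjusted p = 6.0e-15) and Meg3 at -1.53 ± 0.12 (adjusted p = 1.8e-14). Over 96 h in 1A WT 1 rose and 10 fell (median -0.40), where 48.6% of all genes passed. The gene that rose was Plagl1, a zinc finger factor known to regulate imprinted genes (4.86 ± 0.20, adjusted p = 1.4e-26), and Mest (-1.92 ± 0.10, adjusted p = 4.5e-22) and Peg10 (-2.09 ± 0.14, adjusted p = 3.1e-18) were among those that fell.

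The authors also deposited a table that was corrected for unwanted variation (RUV) and holds a whole-number score per gene and library. In this table H19 of Eed KO did not stand above 1A WT, and the gap of Igf2 was smaller at 0 h, near 0 at 12 h and turned from 24 h on. H19 scored 519, 550 and 606 in 1A WT at 0 h and 498, 522 and 475 in Eed KO, so the log2 difference on the scale of the score plus 1 was -0.16 in place of 6.83. At 48 h the scores were 1376, 975 and 1105 in 1A WT and 205, 205 and 199 in Eed KO (-2.48 in place of 6.41). Within Eed KO the order of times also turned: the H19 score was highest at 0 h and lowest at 96 h (189 ± 11.9), while raw levels were lowest at 0 h. The score per CPM was 34.9 in 1A WT at 0 h, 75.0 in V19 WT at 0 h and 0.0370 in Eed KO at 48 h. For Cd81 it stayed between 5.87 and 6.72 over all 20 groups.

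Igf2 scored 534 ± 10.6 in 1A WT at 0 h and 824 ± 16.5 in Eed KO, a difference of 0.62 in place of 4.65. The difference was 0.01 in place of 4.46 at 12 h, -0.46 in place of 4.24 at 24 h and -1.44 in place of 3.30 at 96 h. Ascl2 differed by -0.28 in place of 2.10 at 0 h and by -1.58 in place of 1.25 at 96 h. Differences of Ezh2 KO from 1A WT kept their sign for H19 (-2.97 in place of -2.30 at 0 h). Over the 20 group means on a log2 scale the 2 tables had r = 0.289 for H19, 0.284 for Igf2 and 0.496 for Ascl2. The other members had 0.921 (Phlda2), 0.922 (Slc22a18), 0.973 (Kcnq1ot1) and 0.990 (Cd81), and Kcnq1 is not listed in the RUV table. The median over 15083 genes was 0.848, and 1.95% of genes had a lower value than H19 and 10.1% a lower value than Ascl2. Of the 7488 genes called between Eed KO and 1A WT at 0 h in raw counts, 29.5% had the opposite sign in the RUV table. Of the 234 of them with a log2 difference of 4 or more, 41 were below 0 in the RUV table. The median over all 234 was 4.93 in raw counts and 1.16 in the RUV table. Among neighbours at 0 h, Cdkn1c (0.79 in raw counts, -2.43 in the RUV table), Osbpl5 (2.26 and -0.80) and Lsp1 (1.40 and -1.61) were among those that changed sign. The settings of the RUV step are not stated, so which table is nearer to the RNA in the cells cannot be told from the files.

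**Figure D5:**
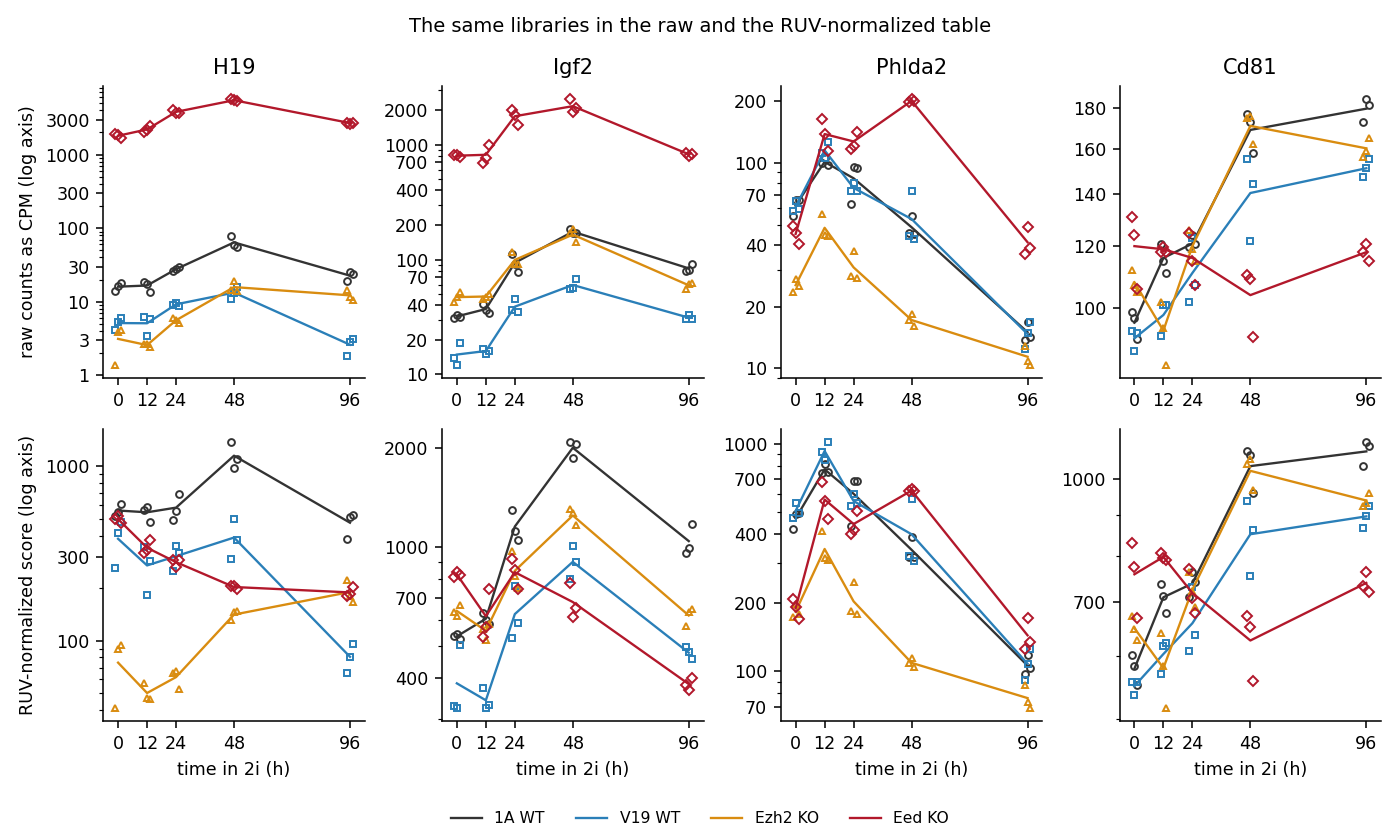
Raw counts as CPM (top) and RUV-normalized score (bottom), both on log axes, against hours in 2i for H19, Igf2, Phlda2 and Cd81, with 1 open symbol per library and lines through the means of 3. Eed KO lies far above the other lines for H19 and Igf2 in the top row. In the bottom row its H19 lies among the other lines at all times and its Igf2 below them at 48 and 96 h, while Cd81 has the same shape in both.

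The genes most like each member were taken over the 20 group means of log2 CPM. Closest to H19 were the simple epithelial keratin Krt8 (r = 0.978), which is also in the trophoblast list, the serotonin receptor gene Htr1d (0.978), the signalling gene Wnt7a (0.976) and the X-linked homeobox genes Rhox6 and Rhox9 (both 0.974). Krt8 ran from 36.1 to 2216 CPM. Closest to Igf2 were Igf2os (0.989), Sowahb (0.986) and Tinagl1 (0.984), and closest to Ascl2 Ccn2 (0.964), Wnt4 (0.959) and Serinc1 (0.950). Phlda2 was closest to Mapk13 (0.926), Rac3 (0.917) and Crb3 (0.907), Slc22a18 to Prdx5 (0.858), Cacng4 (0.832) and Myh14 (0.827), and Cd81 to Mlec (0.854), Nanos1 (0.845) and Trim11 (0.844). For Kcnq1ot1 the closest reached only 0.807 (Rock1), 0.783 (Zfand5) and 0.770 (Tent2). Igf2os and Myh14 lie on chromosome 7 and the rest on other chromosomes. All these values are descriptions over 20 groups that share 4 lines.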

How the data were processed

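Values of 60 RNA-seq libraries were taken from 2 tables. Raw counts per gene, with GRCm39 coordinates and exon lengths, were deposited by the authors; the submitters' processing notes name STAR 2.7.10b, featureCounts 2.0.3, MultiQC 1.14 and DESeq2. The deposited RUV-normalized score is, from the table's name and values, a normalized count rounded to whole numbers by the authors, with settings that are not stated. A deposited table of transformed values was not used here. Every column was assigned from its label, and 0 stayed unmatched.

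Genes passing filterByExpr by group (minimum count 10, minimum total 15) were fitted with edgeR 4.0.16 (R 4.3.3), using TMM factors, 20 group means and 40 residual degrees of freedom. The quasi-likelihood test was adjusted by the Benjamini-Hochberg method over all 15083 genes, with calls at an adjusted p under 0.05. SE is the absolute log2 difference divided by the square root of F. CPM uses TMM factors, and log2 CPM a prior count of 2. RUV differences use log2(score + 1). Library totals of 2561169 to 11065948 reads limit precision most for genes near 1 CPM. Steps were tested on simulated data.

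The members and lists were chosen with earlier results of these data known. Besides the members, the rule names up to 4 called neighbours per comparison with the largest difference, up to 4 called genes per list with the smallest adjusted p, and the 5 (H19) or 3 genes most like each member. Cdkn1c where the rule does not name it, and the neighbours and genes named beside the RUV table and the markers, were chosen after their values were seen, and differences at 12, 24 and 48 h were added to those planned. Replicates are biological per the labels, which do not say how the cultures were separated, so p-values measure the spread between these samples. Alternatives were RLE size factors, other filters, DESeq2 1.42.0, only the groups compared, a replicate block, the RUV score with limma 3.58.1, pseudocount 5, levels without TMM, and leaving out libraries.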

Additional observations from a re-analysis of the deposited data

Results flagged for a closer look

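Differences of the 96 h response between lines, tested with edgeR's interaction terms, were found for these neighbours. For Eed KO against 1A WT they were Cdkn1c (4.14), Syt8 (4.83), Tnnt3 (3.16) and Tnfrsf23 (2.90), whose log2 change over 96 h was higher in Eed KO. The value of Syt8 depends on the prior count, since 1A WT at 96 h had no read of it. Outside Eed KO, Syt8 and Tnfrsf23 had group means below 1 CPM in every group. For Ezh2 KO they were Cdkn1c (1.39), Dhcr7 (0.60) and Cars (-0.50), and for V19 WT Cdkn1c (-1.25).

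Some members differed from 1A WT in opposite directions at 0 and 96 h in all libraries of the groups. They are given as descriptions with no test. In Eed KO, Phlda2 was below 1A WT at 0 h and above it at 96 h (a shift of 1.92), and Cd81 went from above to below (-0.93). In Ezh2 KO, Igf2 (-1.05) and Cd81 (-0.34) went from above 1A WT to below it. For Cd81 these differences were small, 0.17 ± 0.08 at 0 h and -0.17 ± 0.08 at 96 h, and neither was called. In V19 WT, Slc22a18 went from above to below 1A WT (-1.07 ± 0.41). Its differences were small against their SE, 0.49 ± 0.23 at 0 h and -0.58 ± 0.33 at 96 h, where V19 WT held 23 reads. H19 was lower at 96 h than at 0 h in V19 WT and higher in 1A WT, a difference of -1.43. The V19 WT levels rest on 79 reads at 0 h and 41 at 96 h. On the RUV score H19 was lower at 96 h than at 0 h in both lines (-2.21 in V19 WT and -0.25 in 1A WT).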

How the results depend on the processing

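The 140 differences of members (0, 48 and 96 h) moved by less than 1 SD with RLE size factors, other filters on low counts or DESeq2. They did so too with only the groups compared or a replicate block, and no called difference changed sign in any of these. The same held for the 126 that could be recomputed without the libraries that stand apart. Those libraries are replicate 1 of 1A WT at 24 h, the 12 h groups of Eed KO and Ezh2 KO, and V19 WT at 48 h. Leaving them out was an alternative chosen after seeing the data. Of 32 levels, 5 moved beyond 1 SD without TMM factors and 1 with RLE. With a pseudocount of 5 no RUV difference of a member changed sign. Leaving out 1 library moved 1 of 966 values further, Slc22a18 over 96 h in Ezh2 KO (-1.45 without replicate 3 at 96 h). A move within 1 SD can still exceed the SE of a difference. That of Kcnq1ot1 in V19 WT against 1A WT at 96 h without replicate 1, given above, was larger than its SE of 0.29. With 1 library left out, the ranges at 0 h were 6.74 to 6.90 for H19 and 4.63 to 4.68 for Igf2 in Eed KO against 1A WT, and -2.52 to -1.99 for H19 in Ezh2 KO. The count of called neighbours ranged from 11 to 13 in Eed KO and 2 to 4 in Ezh2 KO at 0 h, and from 6 to 8 over 96 h in 1A WT. The RUV score moved 43 values beyond 1 SD and turned the sign of 12 called ones. Between Eed KO and 1A WT these were H19 at 0, 48 and 96 h (-0.16, -2.48 and -1.31), Igf2 at 48 and 96 h (-1.56 and -1.44) and Ascl2 at 0 and 96 h (-0.28 and -1.58). Within lines they were H19 over 96 h in 1A WT (-0.25) and H19 over 48 and 96 h in Eed KO (-1.29 and -1.39). The others were Igf2 over 48 h in Eed KO (-0.29) and Igf2 over 96 h in Ezh2 KO (-0.05). Some differences that were not called in raw counts changed sign as well. Examples were Igf2 over 96 h in Eed KO (0.04 in raw counts, -1.11 on the RUV score) and Slc22a18 between Eed KO and 1A WT at 96 h (0.43 and -0.19). Igf2 between Eed KO and 1A WT at 0 h was 0.62, and 4 neighbours were called in place of 13, while 5 in place of 3 were called for Ezh2 KO. The cause was not tested. With no filter on low counts 3 neighbours in place of 7 were called over 96 h in Ezh2 KO.

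Same-numbered replicates had correlated deviations of -0.149 to 0.411, with no comparison in which all 3 pairs passed 0.1. Deviations from a mean of 3 libraries depend on each other, so this check cannot exclude that the numbers pair the samples. With the replicate block H19 in Eed KO against 1A WT stayed at 6.83, Igf2 at 4.65 and H19 in Ezh2 KO at -2.30. Called neighbours were 13 and 3 at 0 h and 8 over 96 h in 1A WT, and all genes called in Eed KO at 0 h numbered 7455 in place of 7488. Among window genes the block ended the call of Kcnq1ot1 (V19 WT against 1A WT, 96 h) and Osbpl5 (Ezh2 KO over 96 h). Depth limits Kcnq1 most, and H19 in Ezh2 KO at 0 h rests on 65 reads.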
